A study of Populus ussuriensis with 2 samples.

Results

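The shikimate shunt is the stretch of the lignin pathway that adds the second hydroxyl group to the ring of the monolignol precursors and then methylates it. It was followed here through 8 poplar loci, HCT1, HCT6, C3H3, CSE1, CSE2, CCoAOMT1, CCoAOMT2 and CCoAOMT3, taken from a fixed list of IDs out of 36385 listed loci. All 8 were found in both libraries, with 20 listed transcripts between them. The files hold IDs only, so the names are those given with that list, in the numbering used for Populus trichocarpa, and no annotation was used here to check them against a sequence.

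RNA was taken from the lowest 0.5 cm of stem cuttings of Populus ussuriensis in a study of adventitious root development over time. The plants were grown in vitro on half-strength Murashige and Skoog medium with 20 g/L sucrose at 25 °C under 16 h of light and 8 h of dark, seedlings of 2 weeks were cut, and the labels date both libraries to day 14 after cutting. No genotype, clone, treatment or further condition is labelled, so the 2 libraries form 1 group, called replicate 1 and replicate 2 in accession order. The library titles differ only in a running number after the same letter, and what either stands for is not given. The series is titled a time series, so this grouping is in doubt, and every SD with n = 2 below depends on it. Nothing says whether they came from separate cuttings, so an SD covers the spread of this pair of libraries alone, technical spread included, and no test between conditions could be made. Levels are FPKM, fragments scaled to transcript length and to the mapped fragments of the library, which are per length and so can be set side by side between genes. In a whole piece of stem, fewer cells of a type and less RNA per cell cannot be told apart. Of the tissue label only the presence of xylem was looked at, through 4 IDs put down for cellulose synthases of its secondary wall. No source used here annotates that role. These 4 loci lay between 39.5 and 181.9 FPKM in replicate 1 and between 36.8 and 176.9 FPKM in replicate 2, so none was near 0. They cannot tell a stem base from another tissue with xylem.

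HCT, a hydroxycinnamoyl transferase, moves the coumaroyl group from coenzyme A onto shikimate. C3H, a cytochrome P450, hydroxylates the ring of the resulting ester, and CSE, an esterase, cuts caffeoyl shikimate to release caffeate. CCoAOMT methylates caffeoyl-CoA, not free caffeate, to feruloyl-CoA. Feruloyl-CoA leads on to guaiacyl and syringyl lignin, the polymers that stiffen the walls of xylem vessels and fibres. Together the 8 loci summed to 1113 FPKM in replicate 1 and 941 FPKM in replicate 2, which was 0.201% and 0.176% of all listed FPKM.

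Summed over the copies in the set, which differ in number between enzymes, the methylation step had the highest level of the 4. The esterase step had the lowest. The 3 CCoAOMT loci summed to 682 FPKM in replicate 1 and 568 FPKM in replicate 2, or 625 ± 81.0 FPKM (SD, n = 2). The single C3H locus followed at 223 ± 25.4 FPKM, the 2 HCT loci at 123.9 ± 8.54 FPKM and the 2 CSE loci at 55.2 ± 6.61 FPKM (SD, n = 2 each). The order of the steps was the same in both libraries, and no range of one step overlapped that of another.

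The proportions between steps within each library were as follows. CCoAOMT stood 2.83-fold above C3H in replicate 1 and 2.77-fold in replicate 2. It stood 5.25-fold and 4.82-fold above HCT, the ratio with the largest SD of the 6, at 5.03 ± 0.31 (SD, n = 2). C3H stood 4.02-fold and 4.06-fold above CSE, and 1.85-fold and 1.74-fold above HCT. HCT stood 2.17-fold and 2.34-fold above CSE, and the widest gap, CCoAOMT over CSE, was 11.4-fold and 11.2-fold. Of the FPKM of the 8 loci, CCoAOMT held 61.3% in replicate 1 and 60.3% in replicate 2, C3H 21.6% and 21.8%, HCT 11.7% and 12.5%, and CSE 5.38% and 5.36%. These sums cover the listed copies in the set, and other copies of the 4 families were not analysed here.

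**Figure D1:**
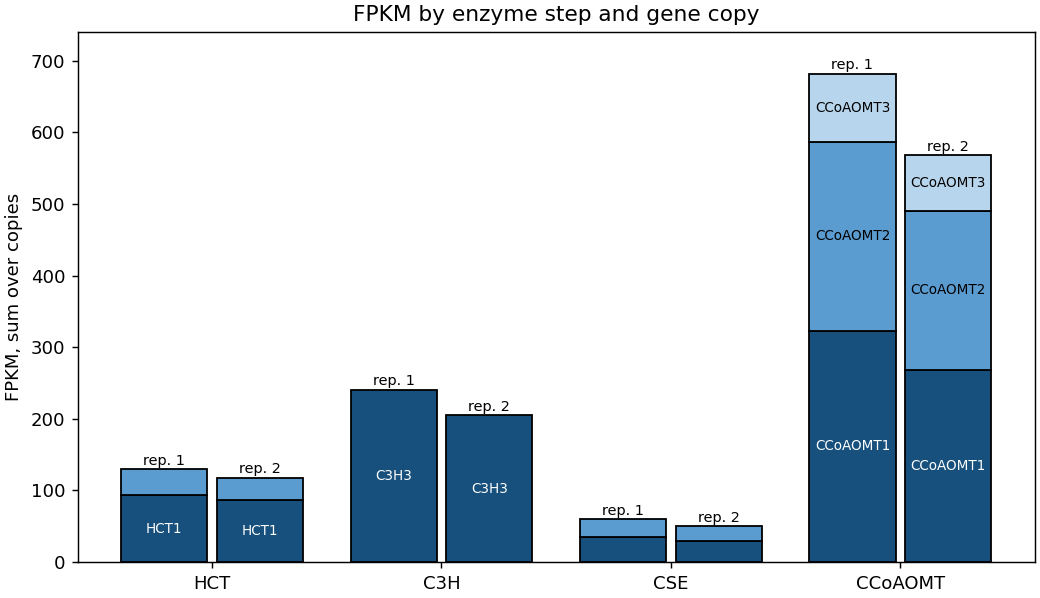
Summed FPKM of each enzyme step (vertical axis, linear from 0) in replicate 1 and replicate 2, with each bar divided into its gene copies in the order of their numbering, lowest number at the bottom. The CCoAOMT bars reach 682 and 568 FPKM and the CSE bars 59.8 and 50.5 FPKM; labels are printed only in segments above 60 FPKM.

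HCT1 carried most of the transferase signal. It (Potri.003G183900) measured 92.9 FPKM in the first replicate and 86.6 FPKM in the second, or 89.7 ± 4.45 FPKM (SD, n = 2). HCT6 (Potri.001G042900) was at 37.1 FPKM and 31.3 FPKM, or 34.2 ± 4.09 FPKM. The ranges of the 2 copies lay far apart. HCT1 was 2.51-fold above HCT6 in replicate 1 and 2.77-fold in replicate 2, and held 71.5% and 73.5% of the HCT sum.

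C3H3 (Potri.006G033300), the only hydroxylase in the set, measured 240.8 FPKM (replicate 1) and 204.8 FPKM (replicate 2), or 223 ± 25.4 FPKM (SD, n = 2). It ranked 239th and 287th among all listed loci. As a single locus it was at 0.914 times the level of CCoAOMT2 in replicate 1 and 0.922 times in replicate 2, so its step lay below CCoAOMT as a whole while its locus lay close to the second of the methyltransferase copies.

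The esterase copies had the lowest means of the 8. CSE1 (Potri.003G059200) measured 35.3 FPKM (replicate 1) and 29.0 FPKM (replicate 2), or 32.2 ± 4.45 FPKM (SD, n = 2). CSE2 (Potri.001G175000) was at 24.5 FPKM and 21.5 FPKM, or 23.0 ± 2.16 FPKM, and had the lowest level of the 8 loci in both libraries. The ranges did not overlap. CSE1 was 1.44-fold above CSE2 in replicate 1 and 1.35-fold in replicate 2, and held 59.0% and 57.5% of the CSE sum.

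A pair of the methyltransferase copies supplied most of the CCoAOMT level. CCoAOMT1 (Potri.009G099800) was the highest of the 8, with 322.9 FPKM (replicate 1) and 268.7 FPKM (replicate 2), or 295.8 ± 38.4 FPKM (SD, n = 2). CCoAOMT2 (Potri.001G304800) was at 263 FPKM and 222 FPKM, or 243 ± 29.2 FPKM. CCoAOMT3 (Potri.008G136600) was at 95.9 FPKM and 76.9 FPKM, or 86.4 ± 13.5 FPKM. In both libraries CCoAOMT3 was well below the other 2.

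CCoAOMT1 held 47.3% of the CCoAOMT sum in each library. CCoAOMT2 held 38.6% in replicate 1 and 39.1% in replicate 2, and CCoAOMT3 held 14.1% and 13.5%. CCoAOMT1 was 1.23-fold and 1.21-fold above CCoAOMT2, and 3.37-fold and 3.49-fold above CCoAOMT3. Copies of one enzyme can share sequence, and how reads that match several loci were counted is not given in the sources used here. The division of FPKM between copies is uncertain to that extent, and its part in these ratios was not tested. How well reads of Populus ussuriensis matched loci in the numbering of Populus trichocarpa was not tested either.

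**Figure D2:**
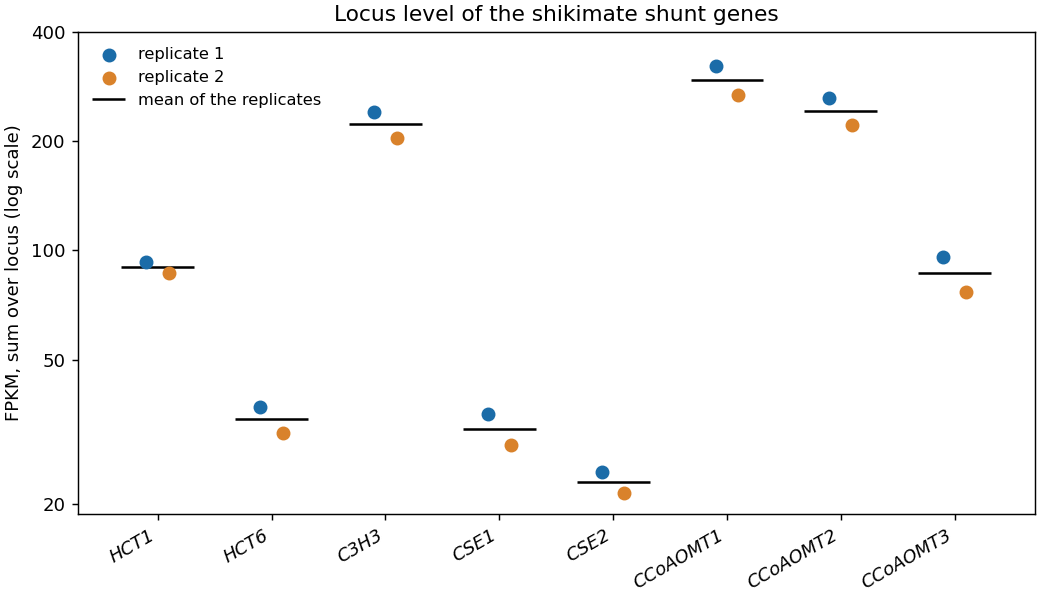
FPKM summed over the listed transcripts of each locus (vertical axis, log scale) in replicate 1 and replicate 2, with the mean of the replicates as a bar. CCoAOMT1, CCoAOMT2 and C3H3 lie above 200 FPKM in both libraries, HCT1 and CCoAOMT3 lie between 76.9 and 95.9 FPKM, and HCT6, CSE1 and CSE2 lie below 40 FPKM.

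All 8 loci were detected at 1 FPKM in both libraries, a minimum that 56.5% of the 36385 listed loci reached. In replicate 1 they ranked from 150th for CCoAOMT1 to 4771st for CSE2. A level at or above that of CSE2 in each library was found for 12.7% of listed loci. From CCoAOMT1 to CSE2 the levels spanned 13.2-fold in replicate 1 and 12.5-fold in replicate 2.

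Along the order of mean levels, 4 of the 7 neighbouring pairs had ranges that did not overlap, and 3 pairs overlapped. In 2 of these 3 the order was nonetheless the same within each library. CCoAOMT2 was above C3H3 by 22.7 FPKM in replicate 1 and by 17.4 FPKM in replicate 2, a difference of 20.1 ± 3.75 FPKM (SD, n = 2). HCT6 was above CSE1 by 1.77 FPKM and 2.28 FPKM, or 2.03 ± 0.36 FPKM. HCT1 and CCoAOMT3 changed places, the one order that differed between the libraries. In replicate 1 CCoAOMT3 was the higher, at 95.9 FPKM against 92.9 FPKM. In replicate 2 HCT1 was the higher, at 86.6 FPKM against 76.9 FPKM. HCT1 minus CCoAOMT3 was 3.33 ± 9.01 FPKM, an SD larger than the difference. An SD of 2 differences is imprecise. Whether the small gap between HCT6 and CSE1 exceeds the counting error of their reads was not tested.

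The transcript that carried a locus was the same in both libraries for all 5 loci with several listed transcripts. It was not transcript 1 in 3 of them, HCT1, HCT6 and C3H3. How the authors' program divided reads among transcripts of a locus is not given in the sources used here, so these shares hold for the deposited values.

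HCT1 was divided between 2 abundant transcripts. Its transcript 2 measured 66.9 FPKM (replicate 1) and 62.5 FPKM (replicate 2), and transcript 1 at 26.0 FPKM and 24.1 FPKM. Transcript 2 thus held 72.0% and 72.2% of the locus. HCT6 lay wholly in transcript 2, with transcript 1 listed at 0 in both libraries.

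In C3H3, transcript 3 measured 237 FPKM (replicate 1) and 196 FPKM (replicate 2), which was 98.6% and 95.6% of the locus. Transcript 1 went the other way, from 3.46 FPKM to 8.34 FPKM, which is 2.41-fold. Transcript 2 was listed at 0 in replicate 1 and at 0.579 FPKM in replicate 2.

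In CCoAOMT1, transcript 1 held 96.1% of the locus in replicate 1, at 310.4 FPKM, and 97.0% in replicate 2, at 260.6 FPKM. The small remainder sat in different transcripts in each library. In replicate 1 it was all in transcript 4, at 12.6 FPKM, with transcripts 2 and 3 listed at 0. In replicate 2 transcript 4 was listed at 0, transcript 2 was at 5.98 FPKM and transcript 3 at 2.09 FPKM. Transcript 1 of CCoAOMT3 held 94.5% and 94.7% of its locus, and none of the other 5 transcripts listed there exceeded 2.90 FPKM in either library.

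Of the 16 transcripts of the 8 loci that averaged 1 FPKM or more, 4 (25.0%) were 2-fold or more apart between the libraries, transcript 1 of C3H3 and transcripts 2, 3 and 4 of CCoAOMT1. Over all 28654 listed transcripts of that level, 13.5% were. None of the 4 was the leading transcript of its locus.

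**Figure D3:**
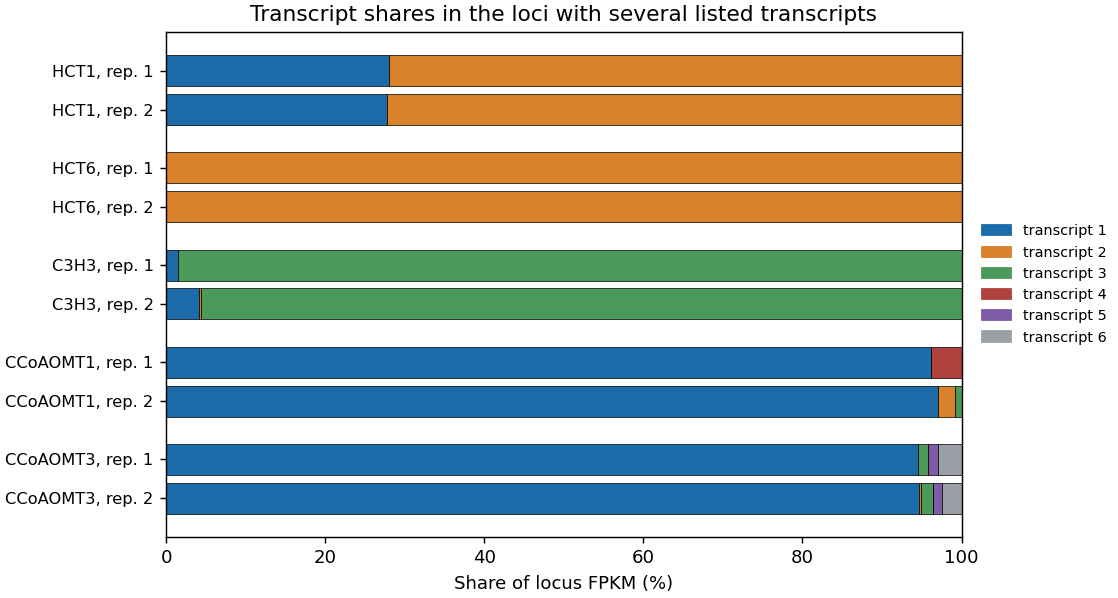
Share of the locus FPKM (horizontal axis, percent) held by each listed transcript in the 5 loci with several, 1 bar per library and 1 colour per transcript number. HCT1 is divided between 2 transcripts at 72.0% and 72.2% for transcript 2, while 1 transcript holds at least 94.5% of each of the other 4 loci.

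Summed per locus, none of the 8 differed 2-fold between the libraries, and 5.03% of the 21247 loci that averaged 1 FPKM or more did. The medians of those loci, 10.1 and 10.2 FPKM, lay below all 8, so that share is not matched for level. All 8 were lower in replicate 2, as were 53.5% of those loci and 55.6% of the 4981 loci whose mean lay within the range of the 8. The 4 secondary wall loci were lower in replicate 2 as well, with log2 ratios of -0.04 for Potri.002G257900, -0.21 for Potri.006G181900, -0.10 for Potri.011G069600 and -0.11 for Potri.004G059600. For the 8 shunt loci the log2 ratio of replicate 2 to replicate 1 ran from -0.32 for CCoAOMT3 to -0.10 for HCT1, with a median of -0.25. The median was -0.02 over the 21231 of those loci that were above 0 in both libraries. Over the 4981 loci in the same FPKM range it was -0.03, with the middle 50% between -0.18 and 0.12. All 8 remained lower in replicate 2 when the libraries were scaled to the same listed sum, with log2 ratios from -0.27 to -0.06. The 8 loci come from the same 2 libraries and are not replicates of each other, so no test is attached to their shared direction.

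In HCT6, CSE1, CSE2 and CCoAOMT2 a single transcript carried all the FPKM, and the ratio of the 2 deposited values was one of whole reads. HCT6 rested on at least 524 reads in replicate 1 and 505 in replicate 2, CSE1 on at least 615 and 577, and CCoAOMT2 on at least 1689 and 1627. For CSE2 the ratio shows only that the reads were equal in both libraries. Their number, 405 in each, rests on its recovered length of 1507 bases and the recovered total, and so on lengths having no common factor. Replicate 2 was 1.14 times as deep by the same reading, so nearly equal reads gave the lower FPKM there. The 95% exact binomial interval of the log2 ratio, which covers counting error only, was -0.42 to -0.07 for HCT6, -0.45 to -0.12 for CSE1 and -0.34 to -0.15 for CCoAOMT2. For CSE2, if 405 reads hold, it was -0.39 to 0.01, which includes 0. The intervals compare 2 libraries and not 2 conditions, and they would be narrower if the reads were a multiple of those given.

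Loci of similar recovered length had a slightly lower median ratio than all such loci. For 4502 loci of 1 transcript with recovered lengths and at least 200 reads over both libraries, the median log2 ratio was -0.02. Among the 1951 of them with a recovered length between 585 and 1590 bases, it was -0.07, with the middle 50% between -0.26 and 0.13. That span is the one recovered for the 4 loci above. Its lower end, 585 bases, is that of CCoAOMT2, whose reads and length may both be larger by a common factor. The log2 ratios of HCT6 (-0.24), CSE2 (-0.19) and CCoAOMT2 (-0.25) lay within the middle 50% of these 1951 loci. That of CSE1 (-0.28) lay below it. Recovered lengths are lower bounds, as reads are, and the part of length in the lower values of replicate 2 was not tested.

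**Figure D4:**
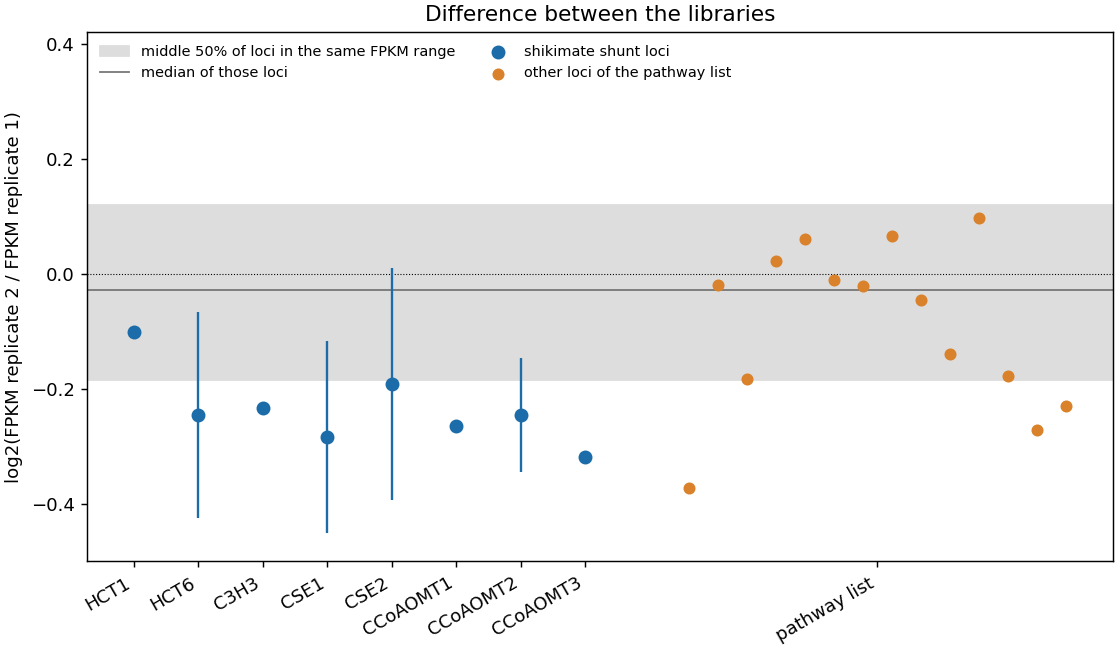
Log2 ratio of replicate 2 to replicate 1 (vertical axis) for the 8 shikimate shunt loci and the 14 other loci of the pathway list, with 95% exact binomial intervals from recovered reads for HCT6, CSE1, CSE2 and CCoAOMT2 (for CSE2 the reads rest on its recovered length). The grey band is the middle 50% of the 4981 loci in the same FPKM range, from -0.18 to 0.12. By definition 50% of those loci lie outside it, above or below. Of the 8 loci, 7 lie below it, CSE2 at -0.19 only just, and HCT1, at -0.10, lies inside it.

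The rest of the monolignol pathway was described by a list of 14 loci put down for phenylalanine ammonia-lyase, cinnamate hydroxylase, coumarate-CoA ligase, cinnamoyl-CoA reductase, ferulate hydroxylase, caffeate O-methyltransferase and cinnamyl alcohol dehydrogenase. No source used here pairs these IDs with an enzyme, so they are given as a list and by ID. All 14 were detected in both libraries and none was 2-fold apart. Their levels ran from 12.9 to 465.8 FPKM in replicate 1 and from 11.02 to 411.7 FPKM in replicate 2. The median was 140.0 and 135.7 FPKM, against 94.4 and 81.7 FPKM for the 8 shunt loci and 10.1 and 10.2 FPKM for all 21247 loci averaging 1 FPKM or more.

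Both sets therefore lay high among listed loci, and their ranges overlapped widely. Potri.012G006400, at 466 and 412 FPKM, and Potri.009G095800, at 421 and 349 FPKM, lay above CCoAOMT1. Potri.010G224200, Potri.003G188500 and Potri.016G078300 lay below CSE2 by mean, at 16.3 ± 0.49, 20.8 ± 0.68 and 11.98 ± 1.34 FPKM (SD, n = 2 each). Of the 14, 10 were lower in replicate 2 and 4 higher, with a median log2 ratio of -0.03 and a range from -0.37 for Potri.006G126800 to 0.10 for Potri.007G016400. The median for the 8 shunt loci was -0.25. With loci of 1 pair of libraries on both sides, this gap was not tested. No genes of like pattern are named, because 2 libraries of 1 group give only 1 ratio per locus.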

How the data were processed

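RNA-seq values for 2 libraries of 1 group were used, 1 FPKM per transcript ID for 65535 transcripts. Whether the list was cut off at that number could not be checked. Ranks, shares of FPKM and percentages of loci or transcripts therefore hold for the listed entries only. The FPKM were computed by the authors and deposited, per the file headers. Bowtie2 2.2.3 and HISAT2 2.1.0 are named in the submitters' processing notes with no role; the quantifier, build, annotation release and filters behind the values were not given in the sources used here. An ID without its last number was taken as the locus, and FPKM were summed per locus. A locus was called detected at 1 FPKM, and 2 values were called apart at 2-fold or more with a mean of at least 1 FPKM, with no pseudocount and no test. The members and lists were chosen with earlier results of these data known. The rule for named loci took all 8 members and the pathway list; its last part, other family copies, needs an annotation and was not used.

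Depth is not given in the files. What 1 read is worth in replicate 2 against replicate 1 was taken from the most frequent ratio among single-transcript loci under 1 FPKM. Divided by it, the ratio of the 2 values gave whole reads for 89.4% of 12813 single-transcript loci above 0 in both libraries, within a relative tolerance of 1e-08. The unit of length was taken as the largest that made most lengths whole (70.2% of 3862 loci, within 0.01). Totals came to 10957286 and 12513099 reads; they rest on lengths having no common factor. This recovery was devised after the data were seen. Python 3.11.15, pandas 2.3.3, numpy 2.4.6 and scipy 1.17.1 were used. The calls, the depth ratio and the read ratios were tested on simulated whole reads with 1 transcript per locus. The recovery of lengths and totals was not tested. Alternatives were scaling, the leading transcript only, a pseudocount of 1, other folds and detection minimums, and leaving out each replicate.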

Additional observations from a re-analysis of the deposited data

How the results depend on the processing

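Using the leading transcript in place of the locus sum lowered the HCT step from 123.9 to 98.9 FPKM, the HCT1 to HCT6 ratio from 2.64 to 1.90 and the CCoAOMT1 to CCoAOMT2 ratio from 1.22 to 1.18, and raised the CCoAOMT2 to CCoAOMT3 ratio from 2.82 to 2.98. HCT1 alone went from 89.7 to 64.7 FPKM. These shifts come from the transcripts left out. With transcripts of at least 1 FPKM only, the leading share of CCoAOMT3 was 95.3% in place of 94.6%. Counted by transcript, an alternative chosen after seeing the data, 4 were 2-fold apart in place of 0 loci. Of 62 values recomputed under settings other than leaving out a replicate, these 7 moved and 55 stayed within 1 SD or within 1.5 times the count. Leaving out 1 of 2 replicates cannot move a mean by over 1 SD, so those values say nothing about stability. Under either scaling the 2 libraries shift slightly in opposite directions, so the mean of a locus or step cannot leave 1 SD. Where 1 transcript carries a whole locus, the leading transcript equals the locus sum. Those of the 55 values that were fixed in these ways say nothing about stability either. No member locus was called apart at 1.5-fold, with no minimum or with a pseudocount of 1. The family copies were not run, because no annotation was used here. No paired analysis was possible because there is a single group. With 2 libraries, an SD is imprecise. Reads were recovered for 4 of the 8 loci, those with a single transcript above 0, and as lower bounds they give only an upper limit on counting error.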
